A study of Mus musculus with 48 samples.

Results

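The second day of the insulin and rosiglitazone step of adipogenesis was read as the change between day 1 and day 2 in 3T3-L1 cells that had received control siRNA. 3T3-L1 is a mouse fibroblast line that turns into fat cells under hormones. The comparison sets 3 arrays of day 1 against 3 of day 2, 6 of the 48 arrays of the series, chosen by siRNA and day alone. All 48 arrays entered the fit that gave the calls, to share its estimates of the spread and the replicate effect. The comparison covers all 24613 probes of the array, under 18991 gene symbols, and no probe was left out for its values. Both days had the same treatment: 50 nM of a non-targeting siRNA pool, then 48 hours of 0.5 mM IBMX and 0.25 µM dexamethasone at confluence, then 5 µg/ml insulin and 1 µM rosiglitazone. Days are counted from the start of rosiglitazone, and the labels state a change of medium every 2 days. Day 1 to day 2 thus lies in the insulin and rosiglitazone step, after the step with IBMX and dexamethasone. PPARγ siRNA cells of the same days, 3 arrays each, received a PPARγ SMARTpool at 50 nM in place of the control pool and are otherwise treated alike. All samples come from 1 cell line, and the 3 replicates are described as independent biological replicates.

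Adipogenesis runs as a relay of transcription factors. C/EBPβ and the glucocorticoid receptor act early and induce PPARγ and C/EBPα, which then keep each other active and switch on the genes of lipid storage. Rosiglitazone is a ligand that activates PPARγ directly, and insulin drives glucose uptake and lipid synthesis. As the cell fills with lipid it rounds up and gives up the stress fibres and matrix of a fibroblast.

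Between 33.5% and 38.3% of the probes were above background on each of the 6 arrays (detection p under 0.01). Replicate 3 had the fewest, 33.6% on day 1 and 33.5% on day 2, against at least 36.8% in the others. Levels are log2 normalised intensities, so that 1 unit is a 2-fold difference, and a probe was called where limma's Bonferroni adjusted p over all probes was at most 0.05. Of 9 fibroblast or preadipocyte markers 8 were above background on all 3 arrays of either day, and of 9 adipocyte markers 7 were. The adipocyte markers that were not are Fabp4, above background on 2 arrays of each day, and Cd36, on 0 arrays of day 1 and 2 of day 2. No marker of macrophages (0 of 8), endothelium (0 of 6), skeletal muscle (0 of 6) or epithelium (0 of 5) was above background on all 3 arrays of a day.

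From day 1 to day 2 of control siRNA, 840 of 24613 probes changed (3.41%), under 768 symbols. On day 2, 418 probes were higher (1.70%) and 422 lower (1.71%). The rises were the larger changes: 170 of the probes called higher passed 2-fold, against 79 of those called lower, and the median called change was 0.91 upward and -0.73 downward. The 3 pairs of arrays with the same replicate number moved the same way in all 418 and all 422 of them. The days did not overlap in 392 and 389. The same arrays made the calls, so these counts are largely set by the choice. They have no share over all probes beside them and are a description only. The median change over all probes was 0.003, and 0.026, 0.002 and -0.017 in the 3 pairs. Among the 8418 probes above background on all 3 arrays of either day, 799 were called (9.49%). The steps on either side share arrays with this one. They had 2231 called probes from day 0 to day 1 and 2079 from day 2 to day 3.

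The count depends on the fit. Fitted on the 6 arrays alone it was 137, of which 81% were higher on day 2. With replicate 1 left out it was 291 and with replicate 2 left out 303. It was 391 in a fit without the pairing by replicate number (no replicate block), and 242 with no scaling between arrays, of which 69% were higher on day 2 against 49.8% as reported.

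Adipoq and Thrsp, known from fat cells, were among the largest rises, and Ffar2, Thrsp and Gpr109a came up from background. The 11 rises named here are among the 12 with the largest fitted rise. Ppp1r1a, an inhibitor of protein phosphatase 1 that is switched on by protein kinase A, read 6.71, 6.63 and 6.78 on the day 1 arrays of replicates 1 to 3 and 10.42, 10.33 and 10.19 on the day 2 arrays. It was near background on day 1, where 2 of 3 arrays detected it, and 12.2-fold higher a day later (log2 change 3.61, SE 0.18, adjusted p = 2.69e-17 from limma). Ffar2, a receptor for short-chain fatty acids, went from 5.85, 5.87 and 5.45 to 9.28, 9.23 and 8.82. No day 1 array had it above background, so only a bound can be given, at least 6.02-fold higher (adjusted p = 2.32e-15 from limma).

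Likewise above background on 0 arrays of day 1 and all 3 of day 2 were Thrsp, the lipogenic protein Spot 14, and Gpr109a, the nicotinic acid receptor of fat cells. Thrsp went from 5.65, 5.36 and 5.67 to 8.65, 8.34 and 9.07, at least 4.49-fold higher (limma adjusted p = 3.97e-16). The level of Gpr109a went from 5.66, 5.44 and 5.39 to 7.93, 8.17 and 7.13, at least 2.34-fold higher (limma adjusted p = 2.24e-06), with replicate 3 the lowest on both days. No array of day 2 was as low as an array of day 1 in either gene. The call of Gpr109a was lost without replicate 1.

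Genes already expressed on day 1 also rose several-fold. Mrap, the accessory protein of the melanocortin 2 receptor, went from 8.89, 8.69 and 8.45 to 11.44, 11.39 and 11.19 (6.35-fold, log2 SE 0.22). Adipoq, which encodes the adipocyte hormone adiponectin, went from 11.91, 11.89 and 11.12 to 13.94, 14.00 and 13.69 (4.72-fold, log2 SE 0.23). Hsd11b1, which regenerates active glucocorticoid inside the cell, went from 9.50, 9.33 and 9.13 to 11.60, 11.69 and 11.53 (4.89-fold, log2 SE 0.13). Replicate 3 was the lowest on each day in all 3 genes, and the days did not overlap.

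Hp, the haemoglobin scavenger haptoglobin, rose 6.39-fold (log2 change 2.68, SE 0.18), and its second probe rose by 2.52 on the log2 scale. Igfbp4, a secreted binding protein for insulin-like growth factors, rose 5.50-fold (2.46, SE 0.12), with a rise of 2.43 at a second probe. Aatk, a membrane-bound kinase, rose 5.30-fold (2.41, SE 0.20) from a day 1 level that 2 of 3 arrays detected. Ear2, a ribonuclease of a family of near-identical genes that probes may not tell apart, was 4.74-fold higher (2.24, SE 0.22). Of its other 2 probes 1 was called (2.23), while the other had a log2 change of 2.02 and a limma adjusted p of 0.254. The control means of Ear2 were 5.24 on day -2, 13.41 on day 0, 9.64 on day 1, 11.88 on day 2 and 6.18 on day 6, so that it was not highest on the late days. One uncharacterised clone name was passed over among the rises and 0 among the falls.

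**Figure D1:**
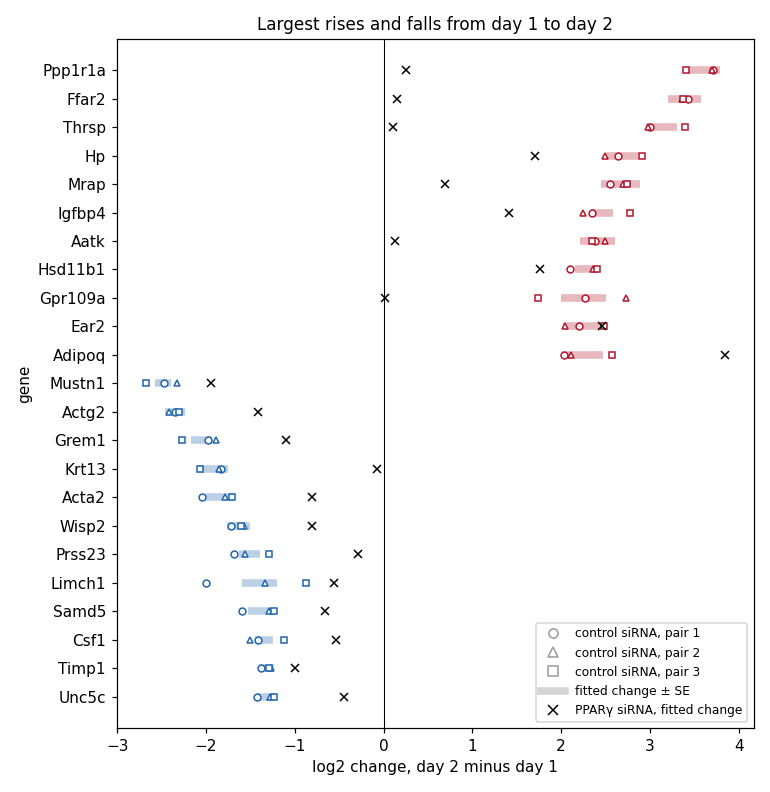
Log2 change from day 1 to day 2 (x axis) of the 11 named rises (red) and 12 named falls (blue), 1 row per gene. Open symbols are the 3 pairs of control siRNA arrays, bars the fitted change ± SE, and crosses the fitted change under PPARγ siRNA. Changes of Ffar2, Thrsp, Gpr109a, Krt13, Limch1 and Samd5 are drawn as fitted, although their lower day is at background, and so are the crosses of Ppp1r1a, Ffar2, Thrsp, Mrap, Aatk, Gpr109a and Adipoq, which were at background on day 1 or both days of PPARγ siRNA. The 3 pairs of each gene lie on 1 side of 0, as the rule that chose the genes requires.

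The smooth muscle actins Actg2 and Acta2 and the secreted proteins Grem1, Wisp2 and Timp1 were among the largest falls. Mustn1, a small nuclear protein of the musculoskeletal system, read 9.62, 9.46 and 9.98 on day 1 and 7.15, 7.13 and 7.30 on day 2, a fall to 0.178 of its day 1 level (log2 change -2.49, SE 0.09, adjusted p = 2.46e-21 from limma). Actg2, the smooth muscle gamma actin, went from 10.61, 10.58 and 11.24 to 8.26, 8.16 and 8.94, which is 0.196 of day 1 (limma adjusted p = 1.67e-17). Acta2, the alpha actin of smooth muscle and stress fibres, went from 11.20, 10.93 and 11.40 to 9.15, 9.14 and 9.69 at the named probe, and its other 2 probes changed by -1.25 and -1.22 on the log2 scale. In each of these genes the day 2 arrays lay below every day 1 array.

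Grem1, a secreted antagonist of bone morphogenetic proteins, went from 9.46, 9.69 and 10.48 to 7.48, 7.80 and 8.21 (log2 change -2.05, SE 0.12). Wisp2, a secreted protein of the CCN family, went from 12.31, 12.16 and 12.23 to 10.59, 10.59 and 10.62 (-1.63, SE 0.13). Timp1, the tissue inhibitor of metalloproteinases, went from 12.70, 12.66 and 12.85 to 11.32, 11.39 and 11.56 (-1.32, SE 0.08). Replicate 3 was the highest of each day for Grem1 and Timp1, and each pair showed the fall. Csf1, the macrophage growth factor, changed by -1.35 (SE 0.10), Prss23, a secreted serine protease, by -1.51 (SE 0.12), and Unc5c, a netrin receptor, by -1.31 (SE 0.10).

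A further 3 genes left the detectable range, with 3 of 3 arrays above background on day 1 and 0 on day 2. Krt13, a keratin, went from 7.77, 7.55 and 7.85 to 5.94, 5.69 and 5.78, at least 2.15-fold lower (limma adjusted p = 3.14e-09). Limch1 was at least 1.54-fold lower (limma adjusted p = 0.00082) and Samd5 at least 1.37-fold lower (limma adjusted p = 6.57e-07). The call of Limch1 was lost without replicate 1, without replicate 2 and with no scaling between arrays.

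The gene lists described next hold 716 entries in 33 lists, of which 660 had a probe, and each gene was read by its brightest probe on the 6 arrays. Their counts stand against the 1.70% of all probes called higher and 1.71% called lower, and their medians against 0.003 over all probes. Many list genes were above background, in oxidative phosphorylation 52 of 60 on all 3 arrays of either day. For such lists the nearer share is that among probes above background, 9.49% called either way.

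Of 19 adipogenic transcription factors 4 rose and 0 fell, with a median log2 change of 0.33 (0.28, 0.30 and 0.31 in the 3 pairs). Cebpa, which with PPARγ sustains the adipocyte state, went from 6.56, 6.67 and 7.24 to 8.36, 8.15 and 8.47 (log2 change 1.5, SE 0.13, limma adjusted p = 1.57e-09). Nr1h3, the oxysterol receptor LXRα, rose by 1.59 and Ppargc1b, a coactivator of mitochondrial genes, by 1.60. Pparg itself went from 10.96, 10.79 and 10.88 to 11.68, 11.32 and 11.70, a rise of 0.69 (limma adjusted p = 0.0124). This call was lost without any 1 of the 3 replicates and with no replicate block, and the other 2 Pparg probes were not called. Cebpb and Cebpd, which act earlier in the relay, had log2 changes of 0.40 (limma adjusted p = 0.174) and 0.10 (limma adjusted p = 1).

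The lipid droplet and lipolysis list had 10 of 14 measured members higher and 0 lower, with a median of 1.06 (1.09, 1.05 and 0.94 in the pairs). Cidec, which fuses droplets into larger ones, went from 12.67, 12.51 and 12.08 to 14.83, 14.66 and 14.38 (4.61-fold). Plin1, the droplet coat protein that gates hydrolysis, went from 8.23, 8.14 and 8.05 to 10.09, 10.01 and 10.03 (3.74-fold). Both the enzymes of lipolysis and their brakes rose. Pnpla2, the first triglyceride lipase, rose by 1.67, its coactivator Abhd5 by 1.09, its inhibitor G0s2 by 1.63 and the hormone-sensitive lipase Lipe by 1.52. The coat proteins Plin2 and Plin4 rose by 1.05 and 0.79. Plin3, a perilipin of most cell types, had a log2 change of -0.46 (limma adjusted p = 0.188).

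Uptake and activation of fatty acids came with 4 of 14 members higher and 0 lower (median 0.56). Acsl1, which activates fatty acids to acyl-CoA, went from 10.71, 10.86 and 10.96 to 12.91, 12.96 and 13.15 (4.48-fold, log2 SE 0.16). Aqp7, the glycerol channel of fat cells, was above background on 0 arrays of day 1 and 3 of day 2, at least 2.92-fold higher (limma adjusted p = 4.54e-07). Lpl, the lipase that releases fatty acids from lipoproteins, rose by 0.79, a call lost without replicate 2.

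In triglyceride synthesis 5 of 14 rose and 0 fell (median 0.34). Agpat2, which makes phosphatidic acid, went from 10.17, 10.16 and 10.12 to 12.25, 12.22 and 12.29 (4.29-fold, log2 SE 0.11, limma adjusted p = 5.07e-17). Dgat1 and Dgat2, the enzymes that add the last acyl chain, rose by 1.71 and 1.99. Gpd1, which makes the glycerol backbone, went from 12.94, 12.94 and 12.81 to 14.83, 14.72 and 14.83 (3.73-fold). De novo lipogenesis had 5 of 17 higher and 0 lower, and a median of 0.10. Scd1, the desaturase, rose by 1.05 (a call lost without replicate 2), whereas Fasn, the fatty acid synthase, had a change of 0.42 (limma adjusted p = 0.404).

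Of 15 adipokines and secreted adipocyte proteins 6 rose and 1 fell (median 0.63; 0.65, 0.88 and 0.80 in the pairs). Cfd, the complement protease adipsin, went from 7.14, 7.44 and 7.06 to 9.09, 9.14 and 8.86 (3.53-fold), and its mean control level was 13.30 on day 3 and 15.53 on day 6. The member that fell was Fst, the activin antagonist follistatin (-0.63), a call lost without replicate 1.

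Most members of the mitochondrial lists did not pass the test. In the pyruvate dehydrogenase and TCA cycle list 5 of 21 were higher and 0 lower (median 0.38), and 20 had a positive change. Idh3a, a subunit of the NAD-linked isocitrate dehydrogenase, went from 9.88, 9.96 and 9.80 to 10.97, 11.11 and 10.81 (2.12-fold). In oxidative phosphorylation 4 of 60 were higher and 0 lower, with a median of 0.20 and 53 positive changes. The members called were Cycs, the electron carrier cytochrome c (0.95), Cyc1, a subunit of complex III (0.55), Ndufs7, a subunit of complex I (0.54), and Cox7a1, a cytochrome oxidase subunit of muscle and brown fat. Cox7a1 was above background on 0 arrays of day 1 and 3 of day 2, at least 2.04-fold higher (limma adjusted p = 1.47e-06). Fatty acid oxidation had 3 of 19 higher (median 0.37), among them Acadm, the medium-chain acyl-CoA dehydrogenase (0.83). The calls of Cyc1 and Ndufs7 were lost without any 1 replicate, and that of Acadm without replicate 1 and without replicate 2. Without replicate 3, an alternative chosen after the data were seen, the counts were 2, 2 and 1 in these lists.

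Peroxisomal genes were higher in 7 of 24 and lower in 0 (median 0.39), with Scp2, a sterol and lipid carrier, at 1.04 and Pex19, a receptor for peroxisomal membrane proteins, at 0.81. Branched-chain amino acid catabolism had 3 of 18 higher (median 0.28), and its aminotransferase Bcat2 went from 9.37, 9.17 and 9.04 to 10.60, 10.87 and 10.42, a rise of 1.44. In the list of insulin signalling, glucose transport and glycolysis 6 of 18 were higher and 0 lower (median 0.36). Pfkfb3, which makes the activator of phosphofructokinase, went from 8.03, 7.77 and 7.86 to 9.47, 9.34 and 9.24 (2.76-fold, log2 SE 0.09). Pfkl, the liver-type phosphofructokinase, rose by 1.18 and Aldoa, an aldolase, by 0.95. Slc2a4, the insulin-regulated glucose transporter GLUT4, was above background on 1 array of day 1 and 3 of day 2, with a rise of 1.44 (limma adjusted p = 0.00616) that lost its call without replicate 1, without replicate 2 and with no replicate block.

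Of 21 genes of cholesterol synthesis and its regulator SREBP2, 7 were higher and 0 lower, with a median of 0.42 (0.39, 0.37 and 0.44 in the pairs) and 20 positive changes. Insig1, which retains SREBP in the endoplasmic reticulum, went from 8.11, 7.93 and 7.75 to 9.14, 9.08 and 9.03 (log2 change 1.15, SE 0.13). Dhcr7, the enzyme of the last step, rose by 0.98 and Cyp51, a sterol demethylase, by 0.80. Dhcr7 lost its call without replicate 1 and without replicate 2. Without replicate 3 the count was 3 of 21.

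The promoters of the called genes of each list were read for 6 motifs, with the values above already seen: the CCAAT box, the nuclear receptor sequence AGGTCA, the sterol element, the CArG box, the E2F site and the cAMP response element TGACGTCA. A CCAAT box (CCAAT on either strand) lies in the 250 bases before the start of 6 of the 7 called sterol genes, in 6 of their 9 RefSeq promoters (66.7%), against 33.8% of all 32851 promoters read the same way. The box is not particular to the sterol genes, and in de novo lipogenesis 4 of 4 promoters of called genes held it. AGGTCA, a core sequence bound by nuclear receptors, on either strand, was in 4 of the 9 sterol promoters (44.4%), against 14% of all. These belong to 2 of the 7 genes, Dhcr7 and Insig1. Insig1 has 1 promoter, so the others are alternative promoters of Dhcr7 and not separate genes. In the fatty acid uptake list AGGTCA was in 2 of 4 promoters of called genes (50%), both of Aqp7. The sterol element TCACCCCAC, on either strand, was in 0 of the 9 and in 0.496% of all. The E2F site and the cAMP response element were in 0 of the 9 as well, against 1.86% and 1.55% of all. In the other lists the E2F site was found for Cnn2 and Dlst, and the cAMP response element for Ldha and Cycs.

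A pair of these promoters is shown for the box that most of the called sterol genes share, from RefSeq on build GRCm38.p6, 5′ to 3′ on the gene's strand and ending at the base before the start. Capitals mark the box. Cyp51 is at chr5:4104698-4104947 on the minus strand, with the box 29 bases before the start, and Insig1 is at chr5:28071162-28071411 on the plus strand, with the box, on the opposite strand, 216 bases before it.
Cyp51: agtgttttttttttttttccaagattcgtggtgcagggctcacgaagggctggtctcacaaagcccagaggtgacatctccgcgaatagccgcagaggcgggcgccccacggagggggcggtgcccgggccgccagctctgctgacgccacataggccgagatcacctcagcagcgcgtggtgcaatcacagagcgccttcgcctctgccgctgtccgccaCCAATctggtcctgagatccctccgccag
Insig1: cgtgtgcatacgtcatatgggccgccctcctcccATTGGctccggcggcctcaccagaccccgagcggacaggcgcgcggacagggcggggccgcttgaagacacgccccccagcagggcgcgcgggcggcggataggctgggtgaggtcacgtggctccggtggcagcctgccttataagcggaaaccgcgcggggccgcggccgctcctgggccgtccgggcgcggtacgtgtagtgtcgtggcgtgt

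**Figure D2:**
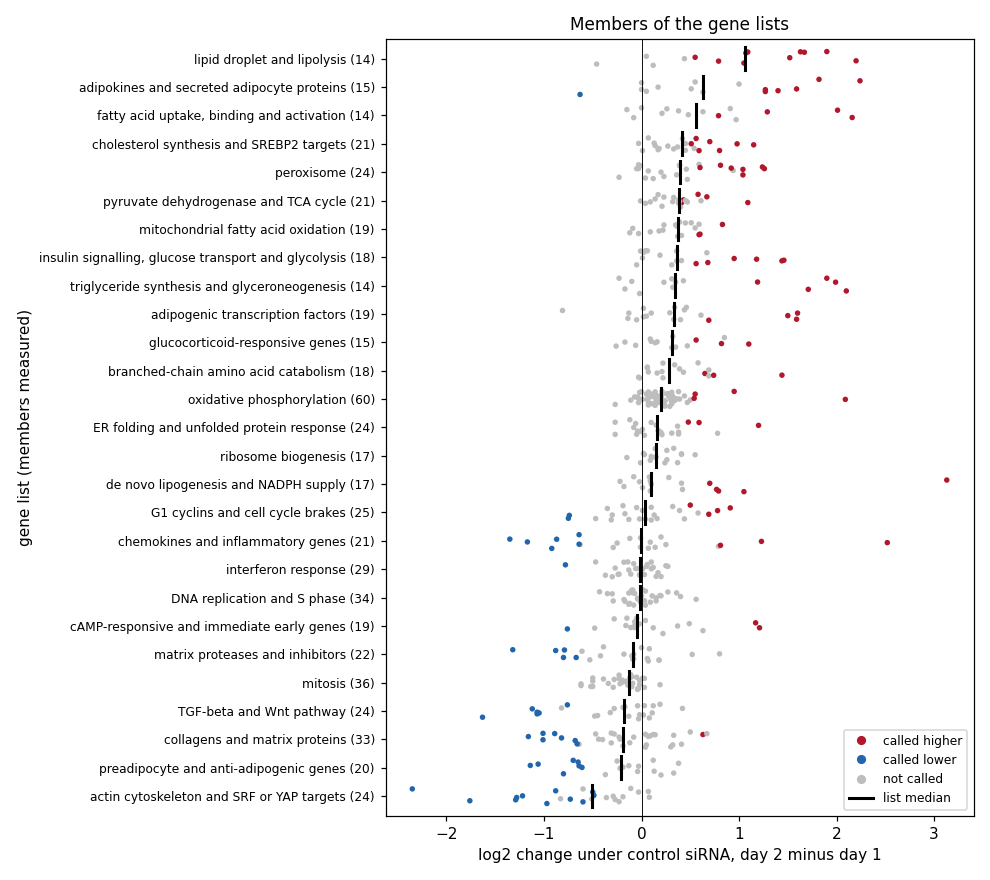
Log2 change from day 1 to day 2 under control siRNA (x axis) for the measured members of the gene lists, 1 row per list with the number measured in brackets. Points are genes, red where called higher, blue where called lower and grey where not called, and black bars are list medians. The lipid droplet list has a median of 1.06 and the actin list a median of -0.51.

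No gene of DNA replication or mitosis passed the test. Of 34 genes of DNA replication 0 were called by limma (median -0.02; 0.00, 0.01 and -0.02 in the pairs), and of 36 mitotic genes 0 were called (median -0.13). At an unadjusted p under 0.05 these counts were 9 and 10, where 19.0% of all probes were under it, and with Benjamini-Hochberg adjustment 6 and 6, where 11.6% of all probes passed. Positive changes were seen in 14 of the 34 replication genes but in 4 of the 36 mitotic genes. The mitosis medians were -0.21, -0.15 and -0.13 in the pairs, so that most mitotic genes had a small fall. In the list of G1 cyclins and cell cycle brakes 4 of 25 were higher and 2 lower. Ccnd1, the cyclin of early G1, went from 13.68, 13.54 and 13.72 to 12.93, 12.95 and 12.84 (-0.74), and the inhibitor Cdkn2b changed by -0.75. The inhibitor Cdkn2c rose by 0.69 and the antiproliferative Tob1 by 0.78. Cdkn2c lost its call without replicate 1, without replicate 2 and with no replicate block, and Tob1 without replicate 2 and without replicate 3. Myc had a rise of 0.91 (limma adjusted p = 0.0226), which lost its call without any 1 replicate, with no replicate block and under quantile normalization. Without replicate 3 the list had 1 higher. Ribosome biogenesis had 0 of 17 called by limma (8 at an unadjusted p under 0.05, 2 with Benjamini-Hochberg adjustment) and a median of 0.15.

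In the list of the actin cytoskeleton and targets of SRF and YAP, transcription regulators that respond to cell tension, 12 of 24 were lower and 0 higher, with a median of -0.51 (-0.53, -0.48 and -0.54 in the pairs). Without replicate 3 the count was 8. Myl9, the regulatory light chain of smooth muscle myosin, went from 8.10, 7.96 and 8.12 to 6.61, 6.86 and 6.87 (log2 change -1.28, SE 0.13). Tpm1, a tropomyosin, went from 11.43, 11.25 and 11.29 to 10.30, 10.25 and 10.52 (-0.97, SE 0.09). Cnn2, a calponin, went from 11.52, 11.59 and 10.69 to 10.61, 10.52 and 10.04 (-0.88), with replicate 3 the lowest on both days, and its call was lost without replicate 2. The arrays of the 2 days did not overlap in any of them. Ctgf, a YAP target of the CCN family, was above background on 2 arrays of day 1 and 0 of day 2, at least 1.84-fold lower (limma adjusted p = 0.00231). Ctgf lost its call without replicate 1, without replicate 2, with no replicate block and on the 24 control arrays alone.

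The CArG box, the binding sequence of SRF, was looked for after these values were seen. It lies in the 250 bases before the start of 2 of the 10 called actin genes with a RefSeq promoter (20%), Myl9 and Cnn2, against 1.47% of all promoters. Both are shown with the box in capitals, from RefSeq on build GRCm38.p6, 5′ to 3′ on the gene's strand. Myl9 is at chr2:156775214-156775463 on the plus strand, with the box 161 bases before the start, and Cnn2 at chr10:79988350-79988599 on the plus strand, with the box 56 bases before it. The box is not particular to the genes that fell. In the peroxisome list, which rose, 1 of 5 promoters of called genes held it (20%), that of Scp2. A match describes these letters only.
Myl9: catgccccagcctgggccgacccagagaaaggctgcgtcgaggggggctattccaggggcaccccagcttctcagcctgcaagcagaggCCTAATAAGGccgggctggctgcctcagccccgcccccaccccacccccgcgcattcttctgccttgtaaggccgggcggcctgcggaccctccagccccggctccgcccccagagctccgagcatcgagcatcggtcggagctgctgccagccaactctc
Cnn2: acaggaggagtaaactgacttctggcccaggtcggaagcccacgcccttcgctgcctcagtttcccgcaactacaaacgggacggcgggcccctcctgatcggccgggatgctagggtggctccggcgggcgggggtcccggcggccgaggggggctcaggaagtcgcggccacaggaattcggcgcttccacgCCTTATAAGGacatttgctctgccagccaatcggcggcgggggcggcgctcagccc

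Of 33 collagens and matrix proteins 7 were lower and 1 higher (median -0.19). Tnc, the adhesion-modulating tenascin C, went from 8.31, 8.0 and 8.10 to 6.86, 7.12 and 6.96 (-1.16). Fn1, fibronectin, changed by -1.01, Fbn1, fibrillin, by -1.01, Mgp, an inhibitor of calcification, by -0.82 and the collagen cross-linking enzyme Lox by -0.66. The member that rose was Col6a3, a chain of collagen VI (0.63). The calls of Lox and Col6a3 were lost without any 1 replicate. Among proteases and their inhibitors 5 of 22 were lower and 0 higher, with Timp2 at -0.67 (a call lost without replicate 1) beside Timp1, while the gelatinase Mmp2 had a change of 0.00 (limma adjusted p = 1).

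Of 20 preadipocyte and anti-adipogenic genes 7 were lower and 0 higher (median -0.21). Gata2, a factor that holds back adipogenesis, went from 8.98, 9.18 and 8.72 to 7.90, 8.0 and 7.79 (-1.06, SE 0.10). Ly6a, the progenitor surface protein Sca-1, went from 12.90, 12.84 and 12.62 to 11.71, 11.64 and 11.59 (-1.14). Dlk1, the preadipocyte factor Pref-1, changed by -0.70, Wnt5a, a signal of the Wnt family, by -0.80, and the transcription factors Zfp521 and Sox9 by -0.65 and -0.64. The calls of Dlk1, Wnt5a, Zfp521 and Sox9 were lost without replicate 1 and without replicate 2. The TGF-beta and Wnt list had 6 of 24 lower and 0 higher (median -0.18), among them Wisp1 (-1.07), of the CCN family, and Id3 (-1.07), an inhibitor of basic helix-loop-helix factors.

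Chemokines and inflammatory genes went both ways, with 6 of 21 lower and 3 higher. Besides Csf1, the lower ones included Ptx3, a secreted pattern receptor (-1.17), the adhesion receptor Vcam1 (-0.92) and the monocyte chemokine Ccl7 (-0.87). Without replicate 1 the calls of Ccl7 and C3 were lost, and without replicate 2 that of C3. The higher ones were Hp, complement C3 (0.81) and Tnfaip3, an inhibitor of NF-κB signalling (1.23).

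Genes that respond to glucocorticoid were higher in 3 of 15 and lower in 0 (median 0.31), among them the phosphatase Dusp1, which went from 10.05, 9.96 and 9.89 to 11.13, 11.11 and 10.95 (1.1). Fkbp5, a cochaperone of the glucocorticoid receptor and one of its targets, had mean control levels of 8.81 on day -2, 12.31 on day 0, 11.45 on day 1, 11.55 on day 2 and 10.08 on day 3. Tsc22d3, another direct target, had 6.19, 9.52, 8.48, 8.43 and 6.55 on these days. Both were highest at the end of the dexamethasone step, and their changes from day 1 to day 2 were 0.09 and -0.06 (limma adjusted p = 1 for each). Of 19 cAMP-responsive and immediate early genes 2 were higher and 1 lower. The unfolded protein response list had 3 higher and 0 lower of 24, and the interferon response list 0 higher and 1 lower of 29. Of all probes 1.70% were higher and 1.71% lower.

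The levels over all days in the control cells include the day 1 and day 2 arrays and are given as a description. Ffar2 was at 9.11 on day 2 and 10.78 on day 6, and Adipoq at 13.88 and 15.20. Agpat2 was at 12.25 (SD 0.04, n = 3) on day 2 and 11.27 (SD 0.1, n = 3) on day 3, and Cebpa at 8.33 (SD 0.16, n = 3) and 7.75 (SD 0.26, n = 3). Both had their highest mean of the 8 days on day 2, with no overlap between the arrays of days 2 and 3. Plin1, Plin2, Abhd5, G0s2 and Ppargc1b also had their highest mean on day 2.

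Several of the genes that fell had a saw-tooth course. Actg2 had means of 11.95 on day -2, 7.55 on day 0, 10.81 on day 1, 8.46 on day 2 and 11.81 on day 3. Mustn1 had 9.04, 6.40, 9.68, 7.19 and 10.77 on these days, and Timp1 13.18, 11.16, 12.74, 11.42 and 13.30. In these genes days 0 and 2 were the lowest of the 8 days, under both siRNAs. Under PPARγ siRNA Mustn1 had 6.06 on day 0, 9.78 on day 1, 7.83 on day 2 and 10.39 on day 3. Gata2 had control means of 10.37, 9.08, 8.96, 7.89 and 9.34, with its low point on day 2. Of the 12 named falls, 11 had a higher mean on day 3 than on day 2. The exception was Krt13, at 5.80 on day 2 and 5.63 on day 3. Alternation was not limited to the falls. Of the named rises, Hp, Igfbp4 and Ear2 had a lower control mean on day 1 than on days 0 and 2, and the others did not. Igfbp4 had 11.07 on day 0, 8.42 on day 1 and 10.88 on day 2, so that its rise did not pass its day 0 level. The actin, preadipocyte and matrix lists were back above their day 1 level on day 3. Set against day 1, the control median of the actin list was -0.51 on day 2, 0.28 on day 3 and 0.39 on day 6. On these days the preadipocyte list had -0.21, 0.24 and 0.38, and the collagens and matrix proteins -0.19, 0.34 and 0.65. The time since the last change of medium is not given for each sample, and its part in these courses was not tested.

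**Figure D3:**
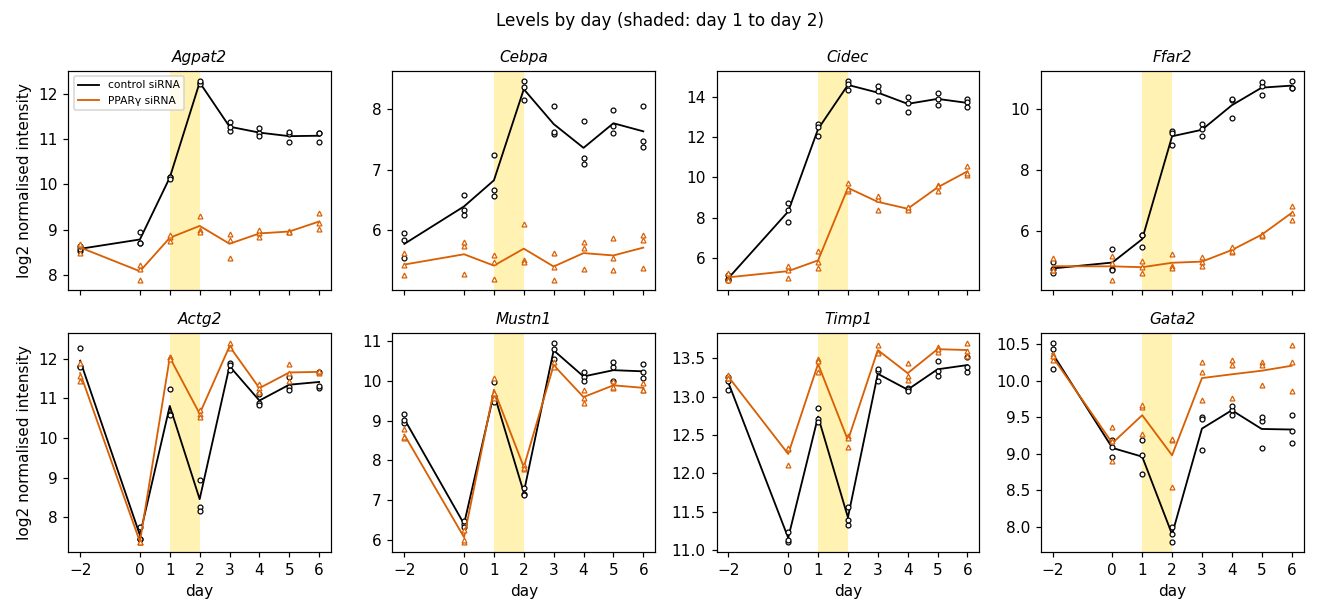
Log2 normalised intensity (y axes, a range of its own in each panel) by day (x axis) of 4 genes that rose and 4 that fell from day 1 to day 2. Points are arrays, 3 per day and siRNA, lines join the means, black circles are control siRNA, orange triangles PPARγ siRNA, and the shaded band is day 1 to day 2. Agpat2 and Cebpa are highest on day 2 in control cells, and Actg2, Mustn1 and Timp1 are low on days 0 and 2.

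Whether the step depended on the siRNA was asked with the difference between the day 1 to day 2 changes of control and PPARγ siRNA cells, which are separate arrays. This difference was called for 512 probes (2.08%), with the control change the higher in 228 (0.926%) and the lower in 284 (1.15%). Unpaired, with no replicate block, the count was 173. It was 73 when replicate 1 was left out and 61 when replicate 2 was. Under PPARγ siRNA the median change was 0.21 for the 418 probes that rose in control cells and -0.15 for the 422 that fell, against -0.038 over all probes. Of the 418, 303 had a positive change under PPARγ siRNA, 76 were called higher and 6 lower, where 1.58% and 0.865% of all probes were. Of the 422, 289 had a negative change, 43 were called lower and 10 higher. The difference was called for 130 of the 418 and 141 of the 422. The control arrays that chose these probes also enter the difference. These shares and the smaller medians under PPARγ siRNA are thus partly set by the choice, and draw no conclusion about the siRNA. Fewer cells of a type and less RNA per cell cannot be told apart in these bulk samples.

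Ppp1r1a, Ffar2, Thrsp, Mrap, Aatk and Gpr109a were above background on 0 of the 6 PPARγ siRNA arrays of days 1 and 2, and the difference was called for each. These differences are thus fitted values that rest on levels at background. The pattern was another for Adipoq and Cidec, which were above background on 0 PPARγ siRNA arrays of day 1 and 3 of day 2. Adipoq went from a mean of 5.63 to 9.47 under PPARγ siRNA, and its difference of -1.60 from the control change was not called (limma adjusted p = 0.344). For Cidec the means were 5.86 and 9.48. Plin4 rose more under PPARγ siRNA, by 2.19 against 0.79, and that difference was called (-1.41, SE 0.12, limma adjusted p = 1.2e-09). Ear2 and Hsd11b1 rose by 2.46 and 1.76 under PPARγ siRNA, against 2.24 and 2.29, with differences of -0.22 (SE 0.31) and 0.53 (SE 0.18) that were not called.

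The triglyceride synthesis list had 3 of 14 members with a called difference, all with the higher change in control cells. Of all probes 0.926% had such a difference. Agpat2 rose by 2.10 in control cells and had a change of 0.26 under PPARγ siRNA, Dgat1 had 1.71 and 0.37, and Dgat2 had 1.99 and 0.80. In glycolysis Pfkfb3 had changes of 1.46 and -0.04, and Pfkl of 1.18 and 0.00. The cholesterol list had medians of 0.42 and 0.36. In it 1 of 21 differences was called, that of Cyp51 (0.80 and 0.07), against 2.08% of all probes.

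The growth lists had lower medians under PPARγ siRNA. The DNA replication list had a median of -0.02 in control cells and -0.48 under PPARγ siRNA. There 6 of 34 were called lower, against 0.865% of all probes. In control cells 30 of the 34 were above background on all 3 arrays of either day. For PPARγ siRNA the share called among such probes was not counted. The mitosis list had -0.13 and -0.50, with 6 of 36 lower under PPARγ siRNA and 0 differences called by limma. At limma's unadjusted p under 0.05 the differences were 10 of 36 in mitosis, 21 of 34 in DNA replication and 14 of 17 in ribosome biogenesis. Of all probes 18.9% were under it. Ribosome biogenesis had 0.15 and -0.45, and the difference was called for 4 of 17, Nola2, Nip7, Mybbp1a and Ddx21. Their control change was the higher, as called for 0.926% of all probes. Nola2, a component of the particles that modify ribosomal RNA, had a change of 0.41 in control cells and -0.61 under PPARγ siRNA. In DNA replication the difference was called for Cdt1 (0.03 and -0.70), which licenses origins, and Ccne1 (0.40 and -0.57), the cyclin of S phase entry. Myc had 0.91 and -0.62, and was above background on 3 PPARγ siRNA arrays of day 1 and 0 of day 2.

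In the matrix and contractile lists the called differences were 5 of 33 among collagens and matrix proteins and 6 of 22 among proteases and inhibitors. The actin list had 4 of 24. All had the lower change in control cells, which was called for 1.15% of all probes. The share among probes above background was not counted for the differences. Mgp changed by -0.82 in control cells and 0.59 under PPARγ siRNA, and Lox by -0.66 and 0.33. Zfp521, of the preadipocyte list, changed by -0.65 and 0.46, and its difference was called as well. Dcn, the collagen-binding decorin, and Mmp2 were not called in control cells (-0.23 and 0.00) and rose under PPARγ siRNA (0.71 and 0.83).

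**Figure D4:**
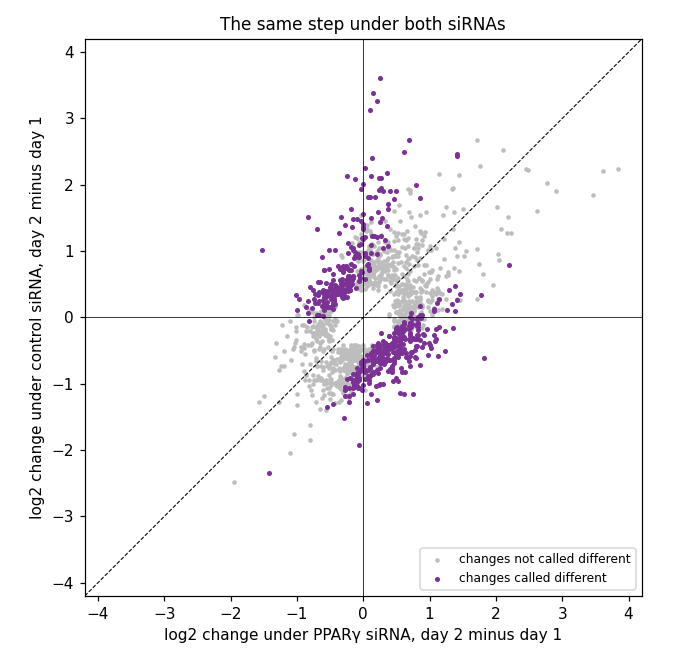
Log2 change from day 1 to day 2 under control siRNA (y axis) against that under PPARγ siRNA (x axis), for the probes called in either siRNA or for the difference. Purple points are the 512 probes whose changes were called different, grey points the others, and the dashed line marks equal change. Purple points lie on both sides of the line, and the control rises over 3 on the y axis lie near 0 on the x axis.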

How the data were processed

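Expression was measured on Illumina mouse BeadChips with biotin-labelled cRNA. The authors deposited intensity values per probe without normalization, and a detection score per probe, a fraction between 0 and 1 read here as 1 minus the detection p against negative controls. Later normalization and batch removal named in the methods are not in these values. Intensities were background corrected with normexp from the detection values (offset 16), scaled between arrays on rank-invariant probes (50th to 90th percentile of level, rank shift under 0.05) and taken to log2, in R 4.3.3 with limma 3.58.1. The rank-invariant scaling is a re-implementation, and the scanner software's own may differ. Scale factors of the 6 arrays were 0.883 to 1.41, and the number of arrays limits the precision.

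The model held the 48 arrays together, with 1 mean for each siRNA at each day and a block for replicate number, which left 30 residual degrees of freedom. Calls used Bonferroni adjustment over 24613 probes at 0.05. The labels give the replicate numbers. Deviations from the group means of arrays of days 1 and 2 with the same number had correlations of 0.822, 0.836 and 0.934. For other numbers they were at most 0.8. The values of replicates 1 and 2 lie close to that, so they say little about the pairing of these replicates. At most 0.215% of probes had identical intensities between replicates.

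Named genes were the 12 largest fitted rises and 12 largest falls among called probes that moved the same way in 3 pairs and were above background on all 3 arrays of the brighter day, 1 probe per symbol, with clone names passed over, and members of the gene lists, each by its brightest probe. Of the 12 rises 11 are reported here. Genes outside this rule are marked where they appear. The members and lists were chosen with earlier results of these data known. "At least" folds compare the brighter day with the higher of the dimmest detected signal and the probe's own signal per array. Of the array's symbols, 17427 matched a RefSeq symbol or synonym. Older array symbols are printed under current names for Plin1, Plin2, Plin3 and Plin4.

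The fit was tested on simulated data, where for the day 1 to day 2 comparison it recovered 26 of 68 probes changed by 0.5 (log2), 57 of 66 changed by 1 and 66 of 66 changed by 2, and for the difference between siRNAs 5 of 68, 42 of 66 and 66 of 66, with 0 false calls in each. The simulated arrays had independent normal noise at each probe's fitted spread and the same replicate effect that the model fits. The false calls there thus do not measure those in the real arrays. Alternatives changed the scaling, background correction, offset, low-signal filter, adjustment, arrays fitted, block, variance model and replicates. Figures were drawn with matplotlib 3.10.9.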

Additional observations from a re-analysis of the deposited data

Results flagged for a closer look

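The 512 probes whose day 1 to day 2 change differed between control and PPARγ siRNA were singled out because the difference itself passed limma's test. The values below are the control change minus the PPARγ siRNA change on the log2 scale, so that a positive value is a higher change in control cells. In Ppp1r1a, Ffar2, Thrsp, Mrap, Aatk, Gpr109a, Krt13, Cebpa, Plin1, Aqp7, Cfd, Cox7a1, Myc, Mc5r, Dusp4 and Spry4 no array of at least 1 of the 4 combinations of day and siRNA was above background, so that their differences are fitted values and not bounds. Groups of 3 arrays were too small for a test of single outlying arrays.

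Among the named rises the differences were Ppp1r1a 3.36, Ffar2 3.24, Thrsp 3.02, Mrap 1.98, Igfbp4 1.05, Aatk 2.28 and Gpr109a 2.23. Among the named falls they were Actg2 -0.93, Krt13 -1.86, Prss23 -1.22, Csf1 -0.81 and Unc5c -0.87.

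Among adipocyte and lipid genes the differences were Cebpa 1.22, Plin1 1.41, Plin3 -1.02, Plin4 -1.41, Aqp7 2.02, Agpat2 1.84, Dgat1 1.35, Dgat2 1.19 and Cfd 1.75. Plin3 and Plin4 thus stood on the other side of 0 from Plin1. Among genes of metabolism they were Idh3a 0.98, Cycs 1.02, Cox7a1 2.21, Bcat2 1.19, Scp2 0.75, Cyp51 0.72, Pfkfb3 1.51, Pfkl 1.19 and Aldoa 0.74, and among genes of growth Cdkn2b -0.86, Myc 1.53, Cdt1 0.73, Ccne1 0.97, Nola2 1.02, Nip7 0.82, Mybbp1a 0.92 and Ddx21 0.72.

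Among matrix, contractile and preadipocyte genes they were Mgp -1.40, Lox -0.99, Dcn -0.94, Mmp2 -0.83, Timp2 -0.81, Myl9 -1.06, Cnn2 -0.95, Tpm1 -0.80, Sox9 -0.72, Zfp521 -1.11, Id3 -0.99 and Wisp1 -0.84, and among inflammatory genes Vcam1 -0.72 and Tnfaip3 1.1. Of the genes that were chosen after their values were seen the differences were Mc5r 1.5, Ankrd37 1.60, Pdk1 1.06, Dusp4 2.37, Spry4 1.25, Snai2 -1.22, Prrx1 -0.92 and Igf1 -1.40.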

How the results depend on the processing

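The count of changed probes (840) and the count of differences between siRNAs (512) stayed within 1.5 times of these values under quantile normalization, scaling on the median of detected probes, no background correction, an offset of 50, a filter on dim probes, a block per siRNA and each probe's own variance. The first did so also on the 24 control arrays alone. With no normalization between arrays the counts were 242 and 53, and with Benjamini-Hochberg adjustment 2847 and 2629. Fitted on the 6 arrays alone the first was 137, of which 81% were higher on day 2, and on the 12 arrays of days 1 and 2 the second was 114, with fewer arrays to estimate the spread. With no replicate block, that is without the pairing, they were 391 and 173. Leaving out 1 replicate number in every group gave 291 to 582 and 61 to 351. Beyond fewer arrays, the cause of these shifts was not tested.

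No direction reversed among the 117 genes followed by name. Of the 103 called, 33 lost the call with no normalization, 52 on the 6 arrays alone, 25, 24 and 7 without replicates 1, 2 and 3, and 23 with no replicate block. The calls lost with no replicate block were those of Pparg, Slc2a4, Cdkn2b, Cdkn2c, Myc, Mgp, Col6a3, Cnn2, Ctgf, Dlk1, Sox9, Zfp521, Ptx3, Tnfaip3, C3, Fst, Cyc1, Ndufs7, Rarres2, Egln3, Prrx1, Igf1 and Nqo1. Probes at background give only bounds, and the smallest called change was 0.41 on the log2 scale.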

Other observations

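The genes of this section were chosen after their values were seen, and the values are given without an explanation. Some receptor or coreceptor genes and the gene of an adipokine rose with the adipocyte genes. Mc5r, a melanocortin receptor, went from 5.86, 5.54 and 5.78 to 7.64, 7.58 and 7.68. It was above background on 0 arrays of day 1 and 3 of day 2, at least 2.17-fold higher (limma adjusted p = 7.55e-09), and its control mean on day 3 was 6.18. Klb, the coreceptor of FGF21, was above background on 0 arrays of day 1 and 2 of day 2, at least 1.16-fold higher (limma adjusted p = 0.00875), a call lost under several alternatives. Rarres2, which encodes the adipokine chemerin, rose by 1.84, with day 1 levels of 10.46, 10.31 and 9.02, and had a fitted rise of 3.47 under PPARγ siRNA, where 0 arrays of day 1 were above background.

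Of genes known to respond to hypoxia, Ankrd37 went from 6.89, 6.82 and 6.58 to 9.13, 9.07 and 7.79, Egln3, a prolyl hydroxylase, changed by 1.18 and Pdk1, a kinase of pyruvate dehydrogenase, by 1.22. Replicate 3 had the lowest level of each on day 2. Of inhibitors of MAP kinase signalling, Dusp4 went from 7.46, 7.31 and 7.23 to 9.55, 9.54 and 9.29 (4.37-fold) and Spry4 from 7.68, 7.37 and 7.42 to 9.15, 9.14 and 9.07 (3.10-fold), while under PPARγ siRNA their changes were -0.24 and 0.38, with 0 arrays above background on day 2 for Dusp4 and on day 1 for Spry4. The mesenchymal transcription factors Snai2 and Prrx1 changed by -1.03 and -1.03, the growth factor Igf1 by -0.96 and the quinone reductase Nqo1 by -1.10. Without replicate 1 the calls of Egln3, Snai2 and Igf1 were lost, and without replicate 2 those of Egln3 and Igf1. Under PPARγ siRNA Igf1 had a change of 0.45 that was not called (limma adjusted p = 1).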
